A study of Mus musculus with 2 samples.

Results

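The genes described here build, sort and pull on actin filaments. They are 41 named genes of the actin filament and non-muscle myosin machinery, chosen by name from knowledge of their function and not by a threshold on these data. All 41 of 41 were listed in both gene files and had UMI counts (counts of unique molecules) in both libraries, out of 26549 symbols that the 2 files share. By role they were 2 cytoplasmic actins, 8 genes for monomer binding and filament turnover, 9 for the Arp2/3 complex and cortactin, 2 for capping protein, 4 tropomyosins, 6 for myosin II, 7 for crosslinking and adhesion, and 3 linkers to the plasma membrane.

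The data are single-cell RNA sequencing of ovaries from female ICR mice, an outbred strain, captured with the BD Rhapsody bead system. The PS-MP library came from mice gavaged with polystyrene microplastics of 0.1 µm, 1 mg in 100 µL per mouse, daily for 35 days from 3 weeks of age. The control library came from mice given ddH2O in its place. Ovaries of both groups were taken at 8 weeks of age, and no genotype, transgene or other agent is given for either group. The number of mice is labelled n = 16, which may be per group or in all. Cells carry no animal label, so each group was treated as 1 sample. With 1 library in each group there is no replicate check, no test and no p-value. Every difference below compares these 2 libraries, and every interval is a 95% interval for counting error only.

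Actin cycles between monomers and filaments. Profilin and the thymosins hold monomers, the Arp2/3 complex branches new filaments from old ones, capping protein stops their growth, and cofilin and its relatives take them apart. Tropomyosins coat filaments and set which proteins reach them, and myosin II slides filaments past each other to make tension. Alpha-actinin, filamin, vinculin, zyxin and talin tie filaments into bundles and adhesions, and ezrin, radixin and moesin join them to the membrane. In the ovary, contractile cells surround vessels and follicles, and granulosa cells keep actin-rich contacts with each other, the basement membrane and the oocyte.

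There were 15056 PS-MP cells (145474989 UMI counts in all) and 15373 control cells (160257194 UMI counts) before filtering, and 3 cell barcodes were in both libraries. After filtering, 14412 PS-MP cells and 14538 control cells remained, with medians of 8643 and 9502.5 UMI counts per cell. Clustering without the actin genes gave 18 clusters, which were named "-like" from marker genes. Clusters 0, 1, 2, 5 and 9 were granulosa-like, with 7394 PS-MP cells and 8564 control cells. They were led by Inhba and Cyp19a1 (cluster 0), by H19, Galnt15 and Ccn2 (cluster 1), by mitotic genes such as Ccnb1 and Top2a (cluster 2), by Amh and Igfbp5 (cluster 5), and by Car4 and Omg (cluster 9). Cluster 4 had 8 of 10 granulosa markers at 20 CPM or more but did not meet the naming rule, so it was left unnamed and is given by number. Cluster 6 was luteal-like, led by Edn2, with all 8 luteal markers at 20 CPM or more. It held 1898 PS-MP cells and 5 control cells, so cell state, treatment and library cannot be told apart in it. Cluster 16 was dendritic-like by its score, but none of its 10 leading genes, among them Siglech and Ccr9, was a fixed dendritic marker. Clusters 1, 2 and 6 likewise had no fixed marker of their own class among their 10 leading genes. Cluster 1 had 7 of 10 granulosa markers at 20 CPM or more. Macrophage or monocyte-like cluster 7 scored 0.995 for its class and 0.858 for neutrophil markers. Blood endothelial-like cluster 10 scored 0.994 for its class and 0.912 for lymphatic endothelial markers. Both may therefore hold more than 1 cell type. At clustering resolution 1.0 a separate neutrophil-like cluster of 60 cells formed.

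Summed over the 41 genes, actin and myosin transcripts took the smallest shares of the cell's UMI counts in most granulosa-like clusters, theca-like cells and oocyte-like cells, and the largest in dendritic-like cluster 15 and macrophage or monocyte-like cells. The sum is dominated by a few genes: Actb, Actg1 and Cfl1 together gave 61.7% of it in PS-MP granulosa-like cells and 61.2% in control granulosa-like cells, as counts that are not divided by transcript length. In granulosa-like cells the share was 1.934% of UMI counts (1.930 to 1.937) in the PS-MP library and 1.947% (1.944 to 1.950) in the control library. Dendritic-like cluster 15, led by Ccl22 and Xcr1, had 7.95% in its 42 PS-MP cells and 8.15% in its 61 control cells. Macrophage or monocyte-like cells had 4.87% and 5.19%, blood endothelial-like cells 3.63% and 3.35%, and smooth muscle or pericyte-like cells 3.43% and 3.40%, PS-MP and control in each pair. The other immune clusters lay lower, with 3.08% in PS-MP and 3.17% in control cells of dendritic-like cluster 16, and 2.84% and 3.35% in T, NK or innate lymphoid-like cells. Stromal fibroblast-like cells had 2.52% in the PS-MP library and 2.35% in the control library. Theca-like cells lay at 1.86% in both libraries, and oocyte-like cells at 1.81% in the PS-MP library and 1.60% in the control library. Theca-like and granulosa-like cells are neighbours in this order whose values differed by less than the quartile range of their cells.

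**Figure D1:**
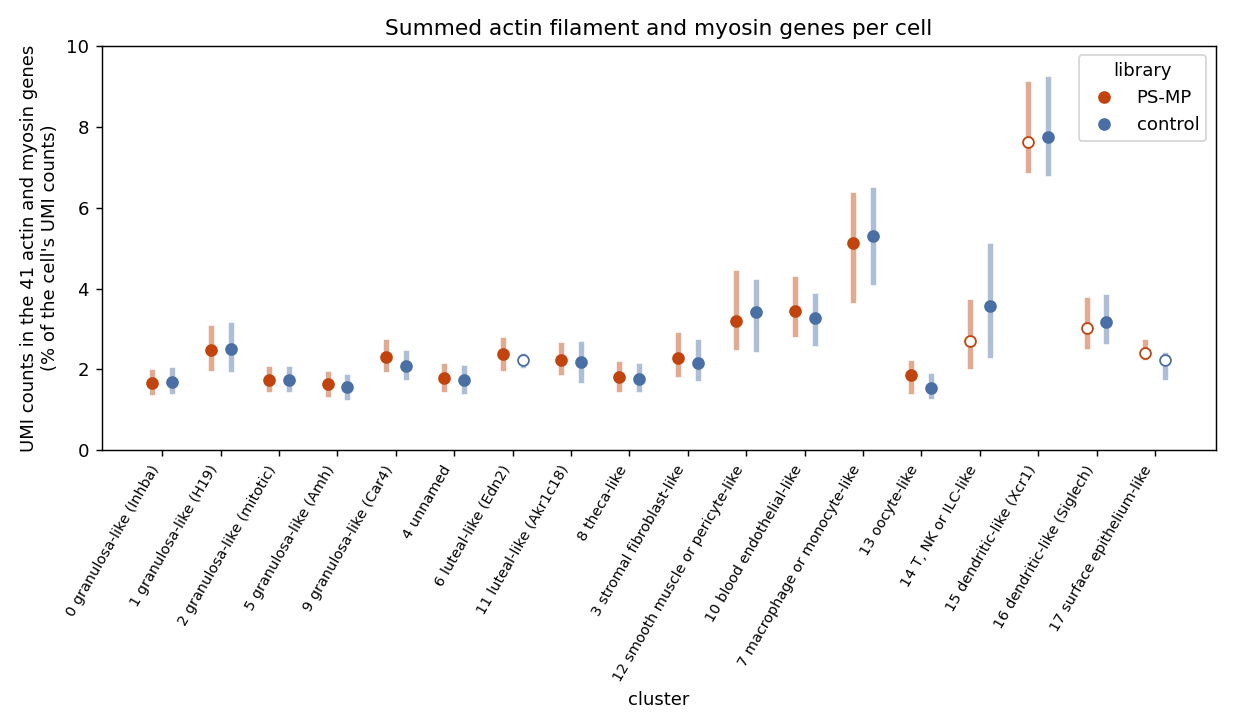
Share of each cell's UMI counts that fell in the 41 genes (y axis, percent) by cluster (x axis), with the PS-MP library on the left of each pair and the control library on the right. Points are medians over cells, bars run from the first to the third quartile, and open points stand for fewer than 50 cells; dendritic-like cluster 15 has medians of 7.61% and 7.75%, and granulosa-like cluster 0 has 1.66% and 1.70%.

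Within the granulosa-like class the share was not uniform. Cluster 1 had 2.61% in the PS-MP library and 2.62% in the control library, and cluster 9 had 2.40% and 2.14%. Clusters 0 and 5 had the lowest values, 1.70% and 1.74% in cluster 0 and 1.65% and 1.59% in cluster 5. Mitotic cluster 2 lay close to them, with 1.80% in both libraries. The spread between these clusters within a library was larger than the difference between the libraries in any of them.

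The members did not share 1 profile across cell types. Levels are given as CPM, the usual scaling of a gene's counts to the total UMI counts of a cluster in a library; they compare a gene across cell types and do not rank genes, since counts are not length-scaled. Over the 13 clusters with at least 50 cells in both libraries, 36 of 41 members had the same highest cluster in the PS-MP and the control library. For 16 this was the macrophage or monocyte-like cluster 7, for 10 the smooth muscle or pericyte-like cluster 12, and for 5 the blood endothelial-like cluster 10. Actg1 and Myl12a were highest in granulosa-like cluster 1, Ezr in granulosa-like cluster 9, Cttn in luteal-like cluster 11 and Arpc1a in oocyte-like cells. The median ratio of a member's highest to its lowest cluster was 5.11 in the PS-MP library and 5.39 in the control library, beside 4.40 and 4.58 over all genes measured in that way. The clusters were made from the same cells, so these orders describe the cells and test nothing. No share over all genes stands beside the counts of members by highest cluster, so whether these counts are particular to the members was not tested. Below, highest and lowest mean among these 13 clusters. Dendritic-like cluster 15, outside them with 42 PS-MP cells and 61 control cells, was higher still for several members: Actr3 had 2093 CPM in its PS-MP cells and 2114 CPM in its control cells, and Arpc2 2478 CPM and 2783 CPM.

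**Figure D2:**
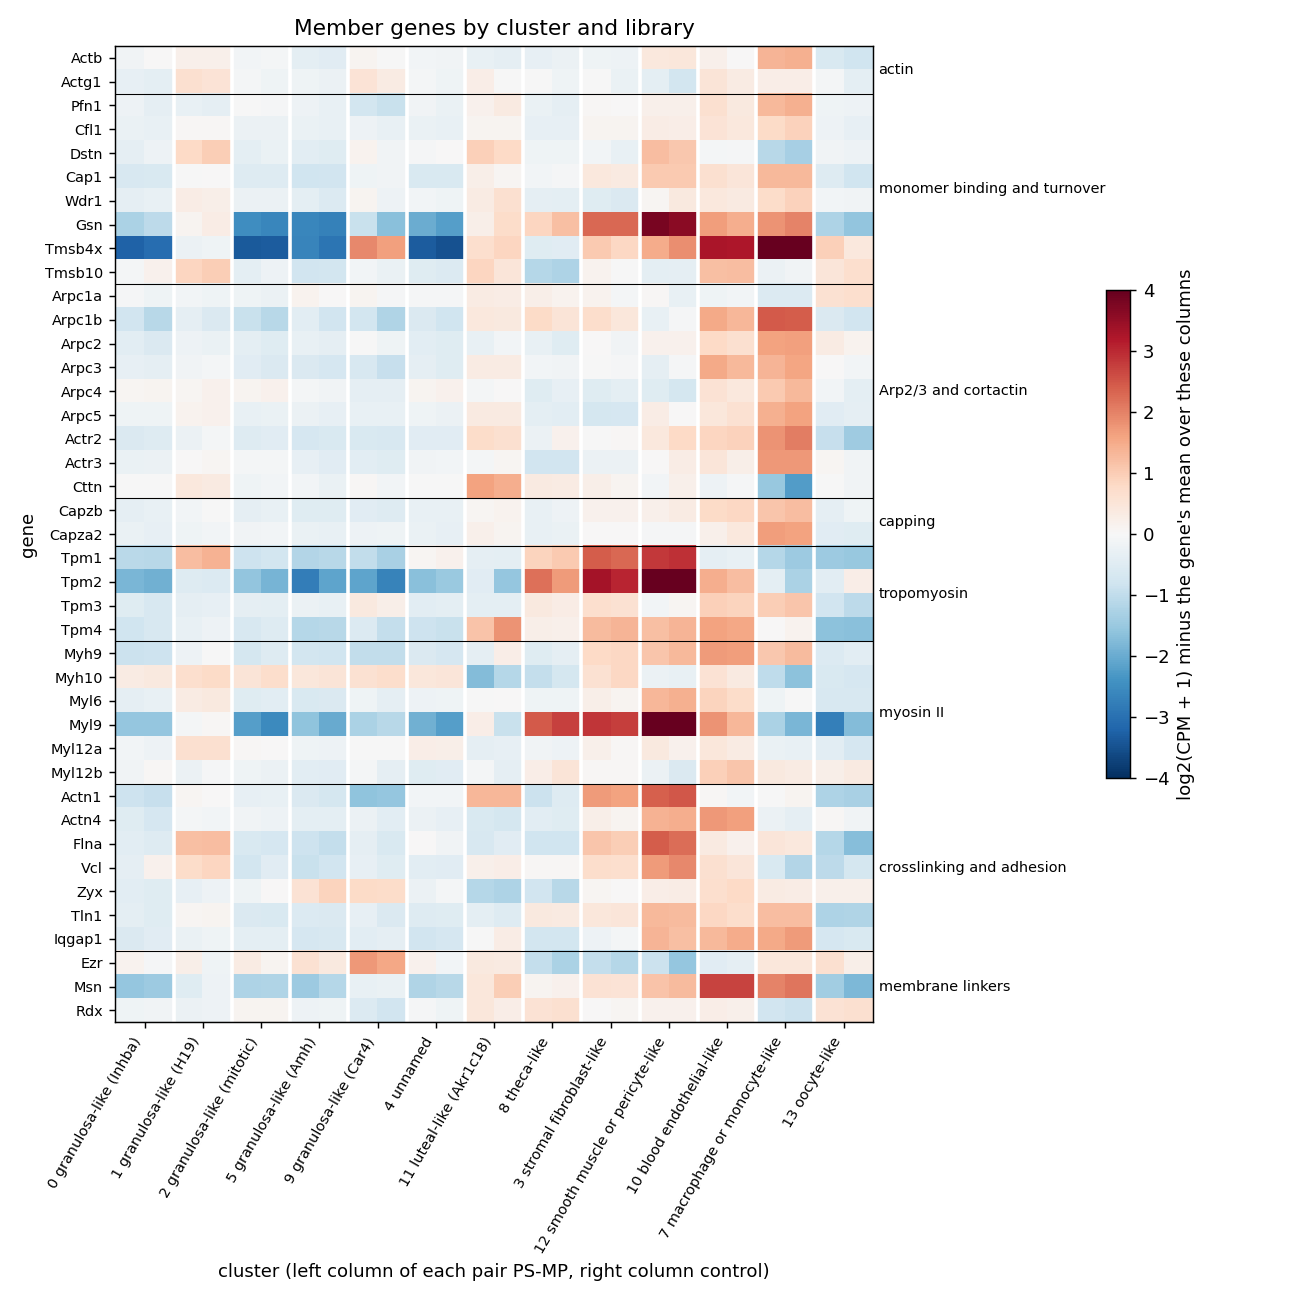
Level of each of the 41 genes (rows, grouped by role) in the 13 clusters with at least 50 cells in both libraries (columns, PS-MP left and control right in each pair), as log2(CPM + 1) minus the gene's mean over the columns. Red is above and blue below that mean; the paired columns look alike, and the widest ranges are those of Tpm2, Myl9, Tmsb4x and Gsn.

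Among the 13 clusters the 2 actins were highest in different cells, and in dendritic-like cluster 15 both were higher still. Actb had 22181 CPM in PS-MP and 22170.1 CPM in control cells of cluster 15, and Actg1 9561 CPM and 10339 CPM. Within the 13, Actb, beta-actin, reached 14196 CPM in PS-MP macrophage or monocyte-like cells and 14814 CPM in control ones, and was lowest in oocyte-like cells, with 3597 CPM and 3152 CPM. Actg1, gamma-actin, was highest in granulosa-like cluster 1, with 6537 CPM in the PS-MP library and 6208 CPM in the control library, and lowest in smooth muscle or pericyte-like cells, with 3247 CPM and 2532 CPM. Their coding sequences are nearly identical, and how the authors counted reads that match both is not given in the sources used here, so the split between them is uncertain.

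Of the monomer-binding and turnover genes, Tmsb4x, thymosin beta 4, had the widest range. It stood at 10400 CPM in PS-MP and 11858 CPM in control macrophage or monocyte-like cells, and at 24531 CPM and 24933 CPM in dendritic-like cluster 15. Granulosa-like cluster 0 had 61.6 CPM in the PS-MP library and 70.2 CPM in the control library, and mitotic cluster 2 had 56.5 CPM and 57.8 CPM. Cluster 9 stood apart from the other granulosa-like clusters, with 2243 CPM of Tmsb4x in the PS-MP library and 1837 CPM in the control library. The 7 macrophage markers together had 26.8 CPM in PS-MP cells and 38.1 CPM in control cells of cluster 9, beside 16683 CPM and 17344 CPM in cluster 7. Processed copies of thymosin genes could take some of their reads, which makes these levels less certain. Tmsb10, the other beta-thymosin measured, held 89.8% of the counts of the pair in PS-MP cluster 0 and 90.2% in control cluster 0, but 19.1% of them in PS-MP and 20.6% in control cells of cluster 9. In macrophage or monocyte-like cells it held 4.48% in the PS-MP library and 4.18% in the control library. Gsn, gelsolin, which severs and caps filaments, had 259 CPM in PS-MP and 228 CPM in control smooth muscle or pericyte-like cells, and 2.08 CPM and 1.89 CPM in cluster 5. Cfl1, cofilin, and Pfn1, profilin, were both highest in macrophage or monocyte-like cells, while Dstn, a relative of cofilin, was lowest there, with 206 CPM in the PS-MP library and 179 CPM in the control library.

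Most Arp2/3 genes were highest in macrophage or monocyte-like cells, but the paralogues of 1 subunit ran in opposite directions. Arpc2, Arpc4, Arpc5, Actr2 and Actr3 were highest in macrophage or monocyte-like cells in both libraries; Actr3, one of the actin-related proteins that start a branch, had 1336 CPM in PS-MP and 1345 CPM in control cells there. Arpc1b, the subunit known in blood cells, had 1167 CPM and 1141 CPM in the same cells and 112 CPM and 97.2 CPM in mitotic granulosa-like cluster 2. Its paralogue Arpc1a ran the other way and had its lowest level in macrophage or monocyte-like cells, 119 CPM in both libraries, and its highest in oocyte-like cells, 266 CPM in the PS-MP library and 277 CPM in the control library. Arpc1a gave 9.27% of the pair's counts in PS-MP and 9.43% in control macrophage or monocyte-like cells, and 65.5% and 69.1% in oocyte-like cells. Across the 13 clusters the log2 levels of Arpc1b and Arpc2 had a Pearson r of 0.78 in the PS-MP library and 0.82 in the control library, and those of Arpc1a and Arpc2 had -0.46 and -0.37. Such values describe 13 clusters that share libraries and depth. Capping protein genes Capzb and Capza2 were also highest in cluster 7. Cttn, cortactin, which holds Arp2/3 branches, was lowest there, with 36.8 CPM in PS-MP and 22.2 CPM in control cells, and highest in luteal-like cluster 11, with 328 CPM and 298 CPM.

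Of the tropomyosin, myosin, crosslinking and adhesion genes, 8 were highest in smooth muscle or pericyte-like cells in both libraries: Tpm1, Tpm2, Myl6, Myl9, Actn1, Flna, Vcl and Tln1. Tpm2, a tropomyosin abundant in smooth muscle, had 821 CPM in 90 PS-MP cells and 701 CPM in 144 control cells of cluster 12, and at most 7.61 CPM and 7.46 CPM in any granulosa-like cluster. Myl9, the regulatory myosin light chain of smooth muscle, had 1343 CPM and 1083 CPM in cluster 12, and 15.8 CPM and 17.1 CPM in granulosa-like cluster 1. Tpm1 had 2973 CPM and 3161 CPM in cluster 12, Actn1, alpha-actinin 1, 1144 CPM and 1222 CPM, and Flna, filamin A, 1501 CPM and 1309 CPM. Vcl, vinculin, had 365 CPM in PS-MP and 425 CPM in control cells there, and Tln1, talin 1, 552 CPM and 543 CPM. Myl6, the essential light chain, was also highest in cluster 12, with 1171 CPM in the PS-MP library and 1254 CPM in the control library. The heavy chains parted from this group: Myh9 was highest in blood endothelial-like cells, 432 CPM and 420 CPM, and Myh10 gave 54.4% of the counts of the pair in PS-MP and 54.9% in control cells of cluster 0, but 10.6% and 6.29% in macrophage or monocyte-like cells. Actn4, the other alpha-actinin, followed Myh9 and was highest in blood endothelial-like cells, with 944 CPM in the PS-MP library and 877 CPM in the control library.

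The promoters of several of these genes hold the CArG box, the element bound by serum response factor, which pairs with actin-sensing coactivators and is known to drive many actin and smooth muscle genes. In RefSeq's promoter windows on GRCm38.p6, which run from 250 bases before to 50 bases after a gene's start, the box was present in 5 of 39 members with a window (12.8%) and in 488 of 27025 genes (1.81%). The searched pattern covers both strands alike, though a single box need not read the same on both. A match is a description of letters and not a bound site, and members were not drawn at random from all genes. The 5 were Actg1, Arpc4, Myl6, Myl9 and Vcl. Actb and Cttn had no window, so their promoters were not searched. Of these, Myl9, Myl6 and Vcl were highest in cluster 12 in both libraries and Actg1 was lowest there, so the windows of these 4 are printed 5′ to 3′ on the gene's strand, with the box in capitals. Myl9 lies at chr2:156775214-156775513 on the + strand with the box from position -161, Vcl at chr14:20929148-20929447 on the + strand with the box from -227, Myl6 at chr10:128492960-128493259 on the - strand with the box from -50, and Actg1 at chr11:120348446-120348745 on the - strand with the box from -90.
Myl9: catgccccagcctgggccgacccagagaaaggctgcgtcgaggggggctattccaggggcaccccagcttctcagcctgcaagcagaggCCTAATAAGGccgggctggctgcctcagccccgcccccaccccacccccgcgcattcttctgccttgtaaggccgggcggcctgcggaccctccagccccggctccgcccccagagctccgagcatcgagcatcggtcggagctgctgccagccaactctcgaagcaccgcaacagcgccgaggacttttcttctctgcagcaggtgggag
Vcl: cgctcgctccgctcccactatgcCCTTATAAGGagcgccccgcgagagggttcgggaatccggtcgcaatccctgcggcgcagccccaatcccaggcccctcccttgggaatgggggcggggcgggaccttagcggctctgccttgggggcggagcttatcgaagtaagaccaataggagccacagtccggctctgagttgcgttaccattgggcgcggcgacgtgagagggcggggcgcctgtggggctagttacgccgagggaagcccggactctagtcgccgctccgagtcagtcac
Myl6: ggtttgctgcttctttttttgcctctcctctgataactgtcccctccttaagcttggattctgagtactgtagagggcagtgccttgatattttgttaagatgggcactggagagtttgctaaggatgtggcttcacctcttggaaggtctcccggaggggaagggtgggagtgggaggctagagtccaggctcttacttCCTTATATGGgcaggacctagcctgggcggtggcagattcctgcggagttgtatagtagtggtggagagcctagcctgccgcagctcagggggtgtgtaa
Actg1: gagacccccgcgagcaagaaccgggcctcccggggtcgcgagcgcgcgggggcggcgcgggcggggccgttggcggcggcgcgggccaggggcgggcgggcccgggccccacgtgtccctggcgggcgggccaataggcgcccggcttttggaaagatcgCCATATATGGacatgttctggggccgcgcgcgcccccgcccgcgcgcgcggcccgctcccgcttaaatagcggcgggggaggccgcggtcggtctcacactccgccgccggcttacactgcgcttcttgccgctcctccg

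The box lay at a different distance from the start in each of the 4 windows, and Myl6 has a second window in the table with no box. Actg1 and Myl9 both carry a box. In smooth muscle or pericyte-like cells Myl9 was at its highest and Actg1 at its lowest of the 13 clusters. The windows of Tpm1, Tpm2, Actn1 and Flna, which were also highest in cluster 12, held no box within these bases. Bases outside the windows were not searched, and the part of the box in these levels was not tested. Srf itself, the gene for serum response factor, was measured at 76.6 CPM in PS-MP and 73.0 CPM in control granulosa-like cells.

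Which of the 3 membrane linkers gave the most counts differed between cell types. Ezr, ezrin, typical of epithelia, gave 72.4% of the family's counts in PS-MP and 71.8% in control cells of cluster 9, where its level was 579 CPM and 509 CPM; the 12 PS-MP and 20 control surface epithelium-like cells had 1257 CPM and 1424 CPM. Msn, moesin, was highest in blood endothelial-like cells, with 521 CPM in PS-MP and 525 CPM in control cells, and gave 56.3% and 56.6% of the family's counts there. Rdx, radixin, gave 66.3% in PS-MP and 68.8% in control theca-like cells. In granulosa-like cluster 0 ezrin and radixin were near each other, at 45.98% and 47.7% in the PS-MP library and 42.1% and 50.9% in the control library, and moesin gave 6.28% and 7.01%.

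**Figure D3:**
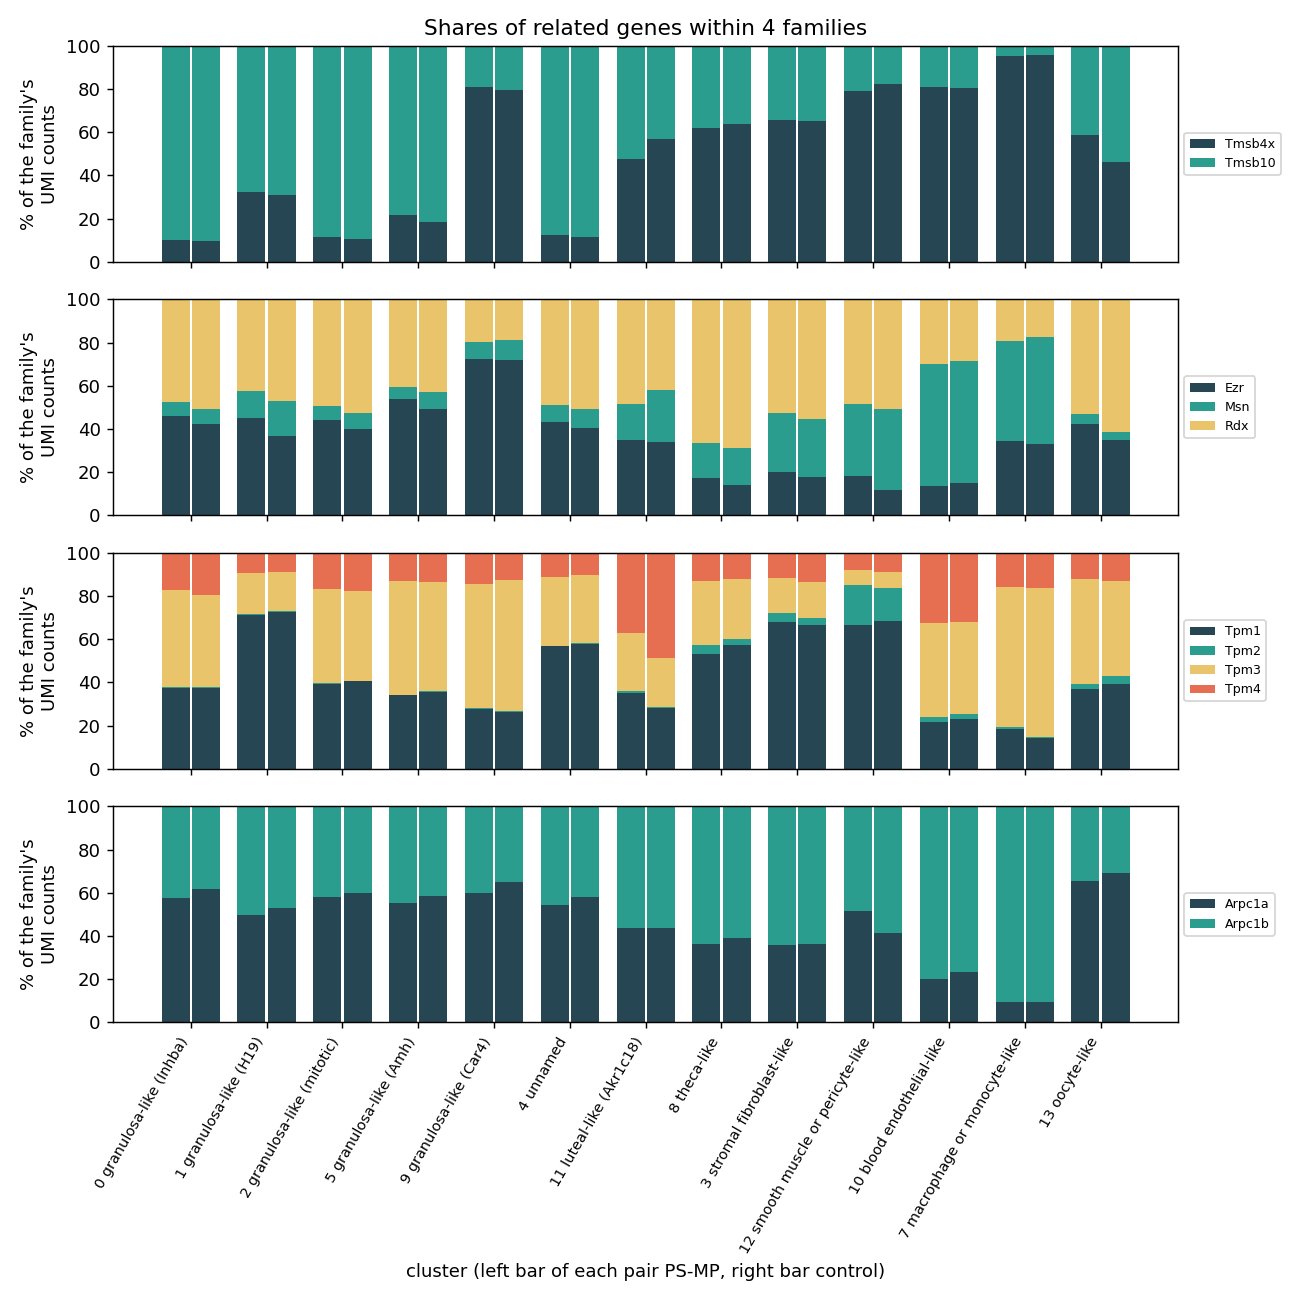
Share of a family's UMI counts given by each of its genes (y axis, percent, stacked to 100%) in 13 clusters (x axis), with the PS-MP bar left and the control bar right, for thymosins, membrane linkers, tropomyosins and the Arpc1 pair. Shares move more between cell types than between libraries: Tmsb4x gives 10.2% and 9.84% of the thymosin counts in cluster 0 and 95.5% and 95.8% in cluster 7.

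Cap1, which helps cofilin recycle actin, and Wdr1, a cofilin cofactor, were highest in macrophage or monocyte-like cells, with 439 CPM in PS-MP and 431 CPM in control cells for Cap1 and 278 CPM and 316 CPM for Wdr1. Iqgap1, a scaffold of the actin cortex, reached 545 CPM in PS-MP and 620.4 CPM in control cells of that cluster, and Tpm3, a tropomyosin of most cell types, 654 CPM and 724 CPM. Arpc3, Zyx, Rdx, Myh10 and Tpm4 were the 5 members whose highest cluster differed between the libraries. Arpc3, another Arp2/3 subunit, was highest in blood endothelial-like cells of the PS-MP library (246 CPM) and in macrophage or monocyte-like cells of the control library (254 CPM). The regulatory light chains Myl12a and Myl12b are near-identical neighbours, so the split between their counts is uncertain; Myl12a ranged from 238 CPM to 508 CPM over the 13 PS-MP clusters and from 200.2 CPM to 504 CPM over the control ones, and Myl12b reached at most 35.7 CPM and 40.4 CPM.

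Granulosa-like cluster 1, led by H19, Galnt15 and Ccn2, had higher levels of Tpm1, Flna and Dstn than the other 4 granulosa-like clusters in both libraries; these genes were chosen after their values were seen. Tpm1 had 976 CPM in its PS-MP cells and 1077 CPM in its control cells, against 195 CPM and 189 CPM in cluster 0. Flna had 644 CPM and 653 CPM in cluster 1, against 208 CPM and 192 CPM in cluster 0, and Dstn 787 CPM and 896 CPM against 350 CPM and 395 CPM. Tpm1 gave 71.4% of tropomyosin counts in PS-MP and 72.6% in control cells of cluster 1. Its share was 66.6% and 68.5% in smooth muscle or pericyte-like cells, and much the same in stromal fibroblast-like cells, 68.2% and 66.6%. Tpm2 gave 0.556% and 0.503% in cluster 1 and 18.4% and 15.2% in cluster 12. The 8 smooth muscle or pericyte markers summed to 120 CPM in PS-MP and 153 CPM in control cells of cluster 1, of which Acta2 made up 101 CPM and 136 CPM, Kcnj8 was at 0 in the PS-MP library, and Myh11, smooth muscle myosin, stood at 1.397 CPM and 1.68 CPM. In cluster 12 the same markers summed to 12284 CPM and 13789 CPM.

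In granulosa-like cells as a class, nearly every actin and myosin gene stayed within 1.2-fold between the libraries, and so did most of all genes. The ratio of the summed share, PS-MP over control, was 0.993 (0.991 to 0.995). Of the 37 members that reached 20 CPM in either library, 1 was at least 1.2-fold higher in the PS-MP library and 1 was at least 1.2-fold lower; of all 7365 genes at that level, 1.43% were higher and 4.73% lower by that much. None of the 37 reached 1.5-fold in either direction, beside 0.0543% of genes higher and 0.543% lower, and 17 lay above a ratio of 1 and 20 below it. Tpm2, Myl9, Myl12b and Gsn were under 20 CPM in granulosa-like cells of both libraries and entered no count. The median log2 ratio of the 37 was -0.01 and that of all genes -0.02. In the same cells the 10 granulosa markers summed to 16613 CPM in the PS-MP library and 18104 CPM in the control library, luteal markers to 417 CPM and 393 CPM, smooth muscle or pericyte markers to 43.5 CPM and 53.0 CPM, and erythroid markers to 11.7 CPM and 56.5 CPM. Median UMI counts per granulosa-like cell were 8896 and 9784.5. The part of these in the single ratios was not tested.

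The gene past the higher limit was Arpc1b, at 132.8 CPM (130.1 to 135.5) in PS-MP and 110.6 CPM (108.5 to 112.8) in control granulosa-like cells, a ratio of 1.2001 (1.17 to 1.23). The value lies at the limit itself, and under 4 of the alternatives tried no member passed that limit. Ezr had 230 CPM in the PS-MP library and 203 CPM in the control library, a ratio of 1.13 (1.11 to 1.16), and Pfn1 had 548 CPM and 509 CPM, a ratio of 1.08 (1.06 to 1.09). At the other end, Vcl had 95.7 CPM (93.5 to 98.0) in PS-MP and 117 CPM (115 to 120) in control cells, a ratio of 0.815 (0.791 to 0.840). Msn had 36.7 CPM and 42.6 CPM, a ratio of 0.861 (0.819 to 0.905), and Tmsb4x 234 CPM and 268 CPM, a ratio of 0.874 (0.857 to 0.891). Actb, used as a reference gene in many assays, had 5218 CPM in the PS-MP library and 5352 CPM in the control library, a ratio of 0.97497 (0.971 to 0.979), and Actg1 had 4360 CPM and 4228 CPM, a ratio of 1.03 (1.03 to 1.04).

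**Figure D4:**
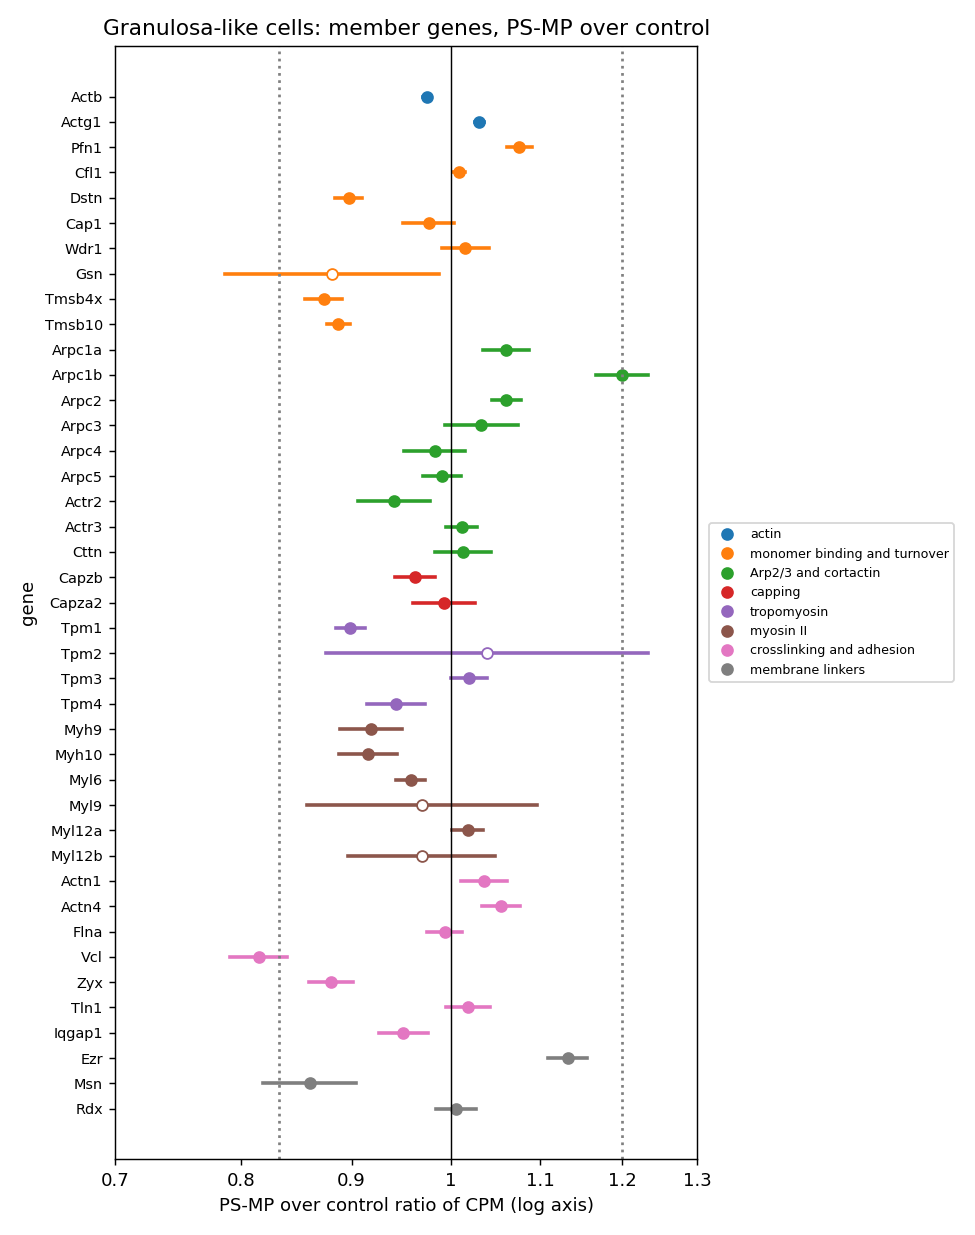
Ratio of PS-MP over control CPM in granulosa-like cells for each of the 41 genes (x axis, log scale; genes on the y axis, coloured by role), with 95% intervals for counting error; open points mark the 4 genes under 20 CPM in both libraries and dotted lines mark 1.2-fold in either direction. Arpc1b lies at the upper dotted line, Vcl (0.815) lies past the lower one, and the other filled points lie between them.

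Cluster by cluster, 5 members were higher in the PS-MP library beyond counting error throughout. Over clusters 0, 1, 2, 5 and 9 and unnamed cluster 4, the counting interval lay above a ratio of 1 in all 6 for Actg1, Pfn1, Arpc1b, Arpc2 and Ezr, which is 5 of the 37 members; of 6086 genes with at least 20 CPM in a library in each of the 6, 1.05% did so. For no member did the interval lie below 1 in all 6, against 1.04% of genes. Whether an interval clears 1 depends on a gene's counts, and members were not matched to these genes by level. By direction alone, 6 of the 37 members, those 5 and Myl12a, were higher in all 6 clusters, beside 548 of the 6086 genes. Lower in all 6 were 4 of the 37, Myh10, Msn, Iqgap1 and Cap1, beside 831 of the 6086 genes. By the 1.2-fold limit, cluster 0 had 1 member higher, Arpc1b, and 1 lower, Vcl, beside 7.46% and 10.7% of genes. Cluster 1 had 1 higher, Ezr, and 1 lower, Msn, beside 4.05% and 6.27%. Cluster 2 had 0 higher and 1 lower, Vcl, beside 2.13% and 6.36%. Cluster 5 had 2 higher, Tmsb4x and Arpc1b, and 2 lower, Zyx and Msn, beside 4.61% and 5.01%. Cluster 4 had 0 in either direction, beside 3.52% and 5.45%. The clusters come from the same 2 libraries and do not count as repeats of the comparison.

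Arpc1b had 125 CPM in PS-MP and 96.3 CPM in control cells of cluster 0, 163 CPM and 139 CPM in cluster 1, and 112 CPM and 97.2 CPM in cluster 2. It had 156 CPM and 124 CPM in cluster 5 and 126 CPM and 90.4 CPM in cluster 9, and its 6 ratios ran from 1.15 in cluster 2 to 1.40 in cluster 9. Ezr ratios ran from 1.14 in cluster 9 to 1.32 in cluster 1, where it had 205 CPM in the PS-MP library and 156 CPM in the control library. Arpc1b and Ezr were at 368 CPM and 354 CPM in PS-MP cells of luteal-like cluster 6, against 132.8 CPM and 230.3 CPM in PS-MP granulosa-like cells as a class. The 8 luteal markers summed to more in the PS-MP than in the control library in clusters 1, 2, 4, 5 and 9, with 421 CPM and 226 CPM in cluster 1, 339 CPM and 294 CPM in cluster 2, 312 CPM and 223 CPM in cluster 4, 219 CPM and 155 CPM in cluster 5, and 467 CPM and 369 CPM in cluster 9. In cluster 0 they summed to 620 CPM in the PS-MP library and 841 CPM in the control library. Their part in these ratios was not tested.

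Vcl differed most in cluster 0, with 87.4 CPM in PS-MP and 127 CPM in control cells, a ratio of 0.688 (0.648 to 0.731). Mitotic cluster 2 followed, with 66.6 CPM and 82.7 CPM and a ratio of 0.806 (0.756 to 0.859). In cluster 4 its ratio was 1.02 (0.946 to 1.097), and in cluster 9 it was 1.12 (0.956 to 1.32). Zyx, zyxin, a partner of vinculin at adhesions, was lower in cluster 5, with 257 CPM in PS-MP and 313 CPM in control cells, a ratio of 0.820 (0.783 to 0.859), but had a ratio of 1.05 (0.997 to 1.11) in cluster 0. The lower Tmsb4x of the class was not seen in each cluster: it had 2243 CPM in PS-MP and 1837 CPM in control cells of cluster 9, a ratio of 1.22 (1.18 to 1.26), and 92.9 CPM and 76.9 CPM in cluster 5, a ratio of 1.21 (1.11 to 1.31). Cluster 9, where Tmsb4x is most abundant, held 353 PS-MP cells and 622 control cells, and with the 5 granulosa-like clusters weighted alike the Tmsb4x ratio was 1.16. Cluster 9 had the largest ratio of the summed share among clusters with over 200 cells in both libraries, 1.12 (1.11 to 1.13). In it 7 of 37 members were at least 1.2-fold higher, Tpm1, Tpm4, Tmsb4x, Arpc1b, Arpc3, Dstn and Wdr1, and 0 lower, beside 10.5% of all genes higher and 11.0% lower.

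**Figure D5:**
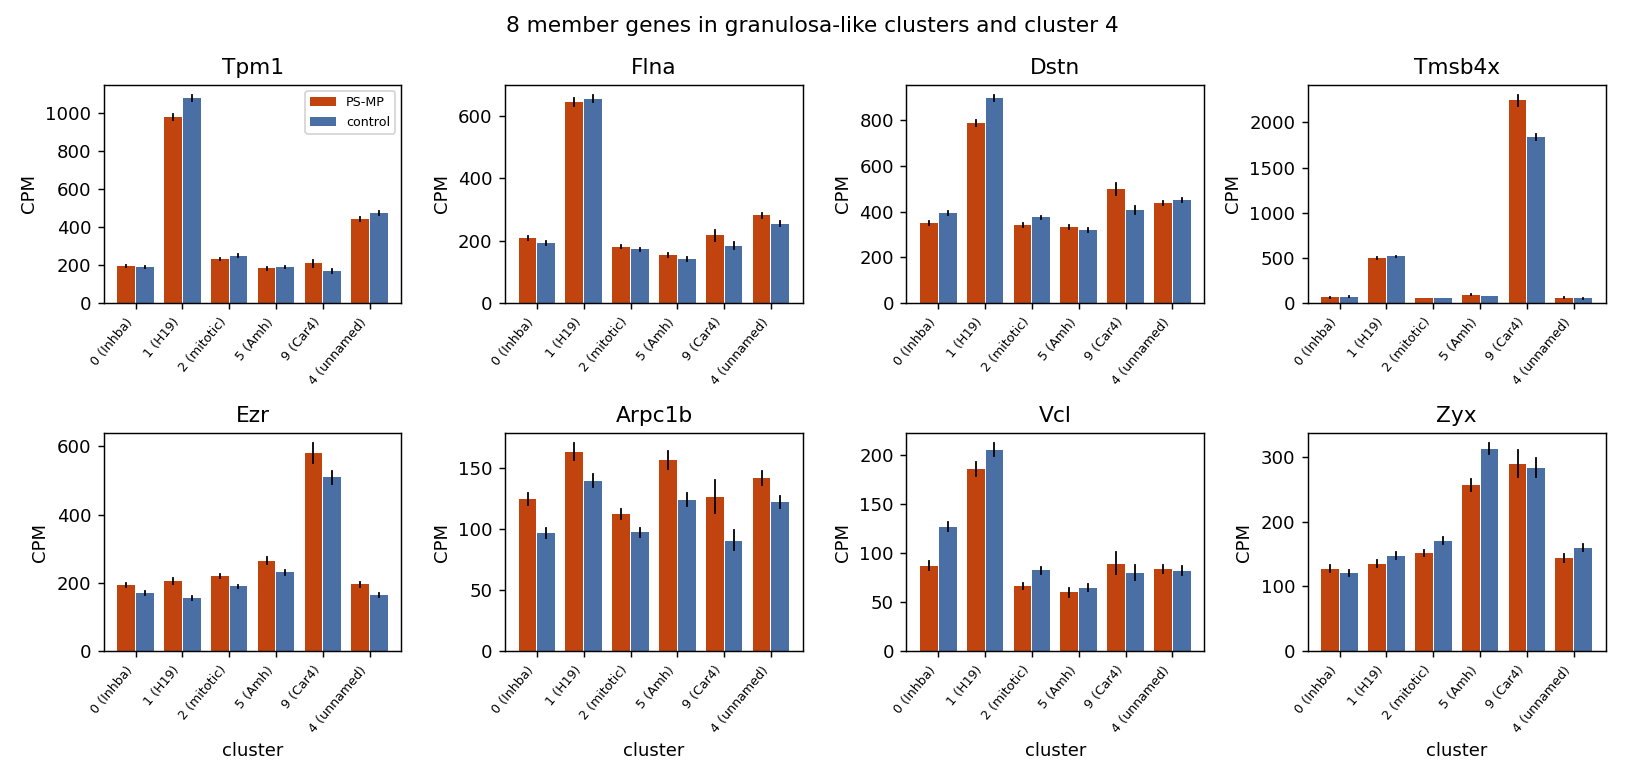
CPM of 8 genes (y axes from 0) in the 5 granulosa-like clusters and unnamed cluster 4 (x axes), with PS-MP bars left and control bars right; black lines are 95% intervals for counting error. Tpm1, Flna and Dstn peak in cluster 1, Tmsb4x and Ezr in cluster 9, Arpc1b and Ezr are higher in the PS-MP library in all 6 clusters, and Vcl is lower in cluster 0 (87.4 against 127 CPM).

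Outside the granulosa-like cells, stromal fibroblast-like cells had a ratio of the summed share of 1.07 (1.07 to 1.08). In them 1 of 40 members was at least 1.2-fold higher and 0 lower, beside 4.31% of genes higher and 5.69% lower, although 30 of the 40 lay above a ratio of 1, beside 43.4% of all genes. The member was Tpm2, with 123 CPM in the PS-MP library and 102 CPM in the control library, a ratio of 1.22 (1.14 to 1.299). The smooth muscle or pericyte markers summed to 670 CPM in PS-MP and 531 CPM in control stromal fibroblast-like cells, with none of the 8 at 0, and their part in the Tpm2 value was not tested. Blood endothelial-like cells had a ratio of the summed share of 1.08 (1.07 to 1.09), with 2 of 41 members at least 1.2-fold higher and 0 lower, beside 12.7% and 18.3% of genes. These were Pfn1, with 967 CPM in PS-MP and 805 CPM in control cells, and Myl9, with 59.6 CPM and 42.7 CPM; smooth muscle or pericyte markers there summed to 694 CPM and 608 CPM, with none at 0, and their part was not tested.

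Theca-like cells had equal summed shares, a ratio of 1.00 (0.992 to 1.0097), and their members passed the limit about as often as all genes. At least 1.2-fold higher were 3 of 41, Tpm2, Zyx and Ezr, and at least 1.2-fold lower were 5, Actr2, Myl9, Myl12b, Actn1 and Gsn, beside 7.86% and 12.8% of genes. Actr2, the other actin-related protein of the Arp2/3 complex, had 77.1 CPM in PS-MP and 102 CPM in control cells, a ratio of 0.753 (0.661 to 0.858), and Actn1 had 120 CPM and 153 CPM, a ratio of 0.783 (0.705 to 0.869). Tpm2 had 56.0 CPM and 39.4 CPM, a ratio of 1.42 (1.19 to 1.70), while Myl9, which shared its smooth muscle profile with a Pearson r of 0.94 over the 13 clusters in each library, had 95.9 CPM and 115 CPM, a ratio of 0.832 (0.738 to 0.937). The 8 smooth muscle or pericyte markers summed to 33.5 CPM in PS-MP and 50.9 CPM in control theca-like cells, with none at 0, and their part was not tested.

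In macrophage or monocyte-like cells the ratio of the summed share was 0.938 (0.932 to 0.944). Tmsb4x, the largest contributor there after Actb, had 10400 CPM in PS-MP and 11858 CPM in control cells, a ratio of 0.877 (0.865 to 0.889). At least 1.2-fold higher were 4 of 39 members, Tpm1, Myh10, Vcl and Cttn, and 0 were lower, beside 13.6% and 10.9% of genes. Myh10 and Cttn were past 1.5-fold, beside 3.83% of genes. Cttn, which had its lowest level of the 13 clusters here, had 36.8 CPM in PS-MP and 22.2 CPM in control cells, a ratio of 1.66 (1.26 to 2.18). Vcl had 73.7 CPM and 49.3 CPM, a ratio of 1.49 (1.24 to 1.80). Markers of other cells differed in both directions in this cluster. The 7 stromal fibroblast markers summed to 353 CPM in PS-MP and 142 CPM in control cells and the 8 luteal markers to 707 CPM and 259 CPM, with none at 0 in either library. Theca markers summed to 617 CPM in the PS-MP library and 268 CPM in the control library, and smooth muscle or pericyte markers to 48.3 CPM and 31.3 CPM, with 1 of 8 at 0 in the PS-MP library. Granulosa markers ran the other way, with 3454 CPM in PS-MP and 3699 CPM in control cells, as did neutrophil markers with 204 CPM and 257 CPM, blood endothelial markers with 39.6 CPM and 53.6 CPM, and B cell markers with 31.3 CPM and 78.8 CPM. Their part in the 4 values was not tested.

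Luteal-like cells cannot be compared in the same way, because cluster 6 held 1898 of the 2031 PS-MP cells of the class and cluster 11 held 233 of its 238 control cells. No count over the class is given. Within cluster 11, 133 PS-MP cells and 233 control cells, the summed share was 2.30% in the PS-MP library and 2.22% in the control library. Tpm4 had 343 CPM in PS-MP and 544 CPM in control cells there, a ratio of 0.630 (0.576 to 0.688), and Myh9 103 CPM and 160 CPM, a ratio of 0.641 (0.543 to 0.754). Tmsb10 had 1035 CPM and 808 CPM, a ratio of 1.28 (1.21 to 1.36). In the PS-MP library alone, the 2 luteal-like clusters had different levels: Tmsb4x had 473 CPM in cluster 6 and 943 CPM in cluster 11, Dstn 462 CPM and 881 CPM, Rdx 527 CPM and 316 CPM, and Gsn 86.7 CPM and 21.2 CPM.

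The regulators of actin in granulosa-like cells were read from 3 further lists, each counted by members with at least 20 CPM and set beside 1.43% of genes higher and 4.73% lower by at least 1.2-fold. Of 10 genes of the WASP and WAVE complexes, which switch on Arp2/3, 0 were higher and 1 lower: Cyfip2, with 147 CPM in the PS-MP library and 178 CPM in the control library, a ratio of 0.825 (0.805 to 0.846). Of the 14 muscle contractile genes only 3 reached 20 CPM, and of these 0 were higher and 2 lower. Cald1, caldesmon, which blocks myosin on actin, had 132 CPM in PS-MP and 190.4 CPM in control cells, a ratio of 0.694 (0.677 to 0.712), and Acta2, smooth muscle actin, had 26.9 CPM and 37.4 CPM, a ratio of 0.719 (0.679 to 0.760). Cald1 was concentrated in cluster 1, with 501 CPM and 675 CPM, and cluster 9, with 488 CPM and 402 CPM, and was lower in the PS-MP library in the first and higher in the second. Of 25 other actin-binding genes 1 was higher, Fscn1, fascin, which bundles filaments, with 820 CPM in PS-MP and 650 CPM in control cells, and 0 were lower.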

How the data were processed

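The authors deposited whole-number UMI counts per gene and cell for 1 PS-MP and 1 control library, with no normalization. Ovaries were digested, cells were captured with BD Rhapsody and read on an Illumina Novaseq, per the labels' protocols. The submitters' processing notes name GRCm39 and Seurat; the sources used here do not give the aligner, counting tool or annotation. Total counts were 145474989 (PS-MP) and 160257194 (control).

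Genes were matched by symbol. Cells with under 500 genes or over 25% mitochondrial counts were removed (286 PS-MP, 520 control). Doublets called by scrublet in scanpy 1.11.5 per library (358, 2.42%, and 315, 2.12%) were left out. Both libraries were clustered together with Leiden (leidenalg 0.10.2, resolution 0.5, 30 components, 15 neighbours, seed 1) on 2000 variable genes from which the 41 members and 4 other actin lists were left out; 6 members would otherwise have been among them. No batch correction was applied. A cluster took the class with the highest mean relative marker level (at least 3 markers at 20 CPM, mean at least 0.15), a scoring set after the files were read, and stayed unnamed where more markers of another class than of its own were among its 10 leading genes.

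Counts were summed per cluster or class and library and scaled to CPM. Intervals are exact Poisson for levels, exact conditional binomial for ratios and exact binomial for shares, at 95%, and cover counting error only. Counts of members past 1.2-fold and 1.5-fold used genes with at least 20 CPM in a library, in classes with at least 200 cells in both; they are not tests. The script was checked on simulated counts. All 41 members could be named; members with the widest range per role, those past 1.2-fold, the 3 highest and 3 lowest granulosa-like ratios, and up to 4 genes with the largest ratios per other list at 50 CPM or more were given. Srf and Acta2, the members shown for clusters 1, 6, 9 and 11, and the promoter box were chosen after values were seen. One of the 4 other lists is not reported here. Members and lists were chosen with earlier results of these data known. Promoter windows are RefSeq's, GRCm38.p6, which is not the build the notes name.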

Additional observations from a re-analysis of the deposited data

Results flagged for a closer look

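For 3 members the ratio of PS-MP over control CPM went in opposite directions in 2 cell groups, by at least 1.2-fold in each. Luteal-like cells were left out of this search, because different clusters hold their PS-MP and control cells. None of these differences was tested, since each rests on 1 library per group. Of all genes, 12.7% were at least 1.2-fold higher in blood endothelial-like, 7.86% in theca-like and 13.6% in macrophage or monocyte-like cells. At least 1.2-fold lower were 12.8% in theca-like cells, 10.7% in cluster 0 and 5.01% in cluster 5. No share of all genes with opposite directions is given, so whether 3 members is many was not tested. Myl9 had a ratio of 1.39 in blood endothelial-like cells and 0.832 in theca-like cells; the smooth muscle or pericyte markers summed to 694 CPM (PS-MP) and 608 CPM (control) in the first and 33.5 CPM and 50.9 CPM in the second, and their part was not tested. Vcl had a ratio of 1.49 in macrophage or monocyte-like cells, from 186 PS-MP and 309 control counts, and 0.688 in granulosa-like cluster 0, from 1684 and 2870 counts. Zyx had a ratio of 1.28 in theca-like cells, with 100.2 CPM in the PS-MP library and 78.5 CPM in the control library, and 0.820 in granulosa-like cluster 5, with 257 CPM and 313 CPM.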

How the results depend on the processing

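The summed share in granulosa-like cells (main: 1.934% PS-MP, 1.947% control, ratio 0.993) gave ratios from 0.981 to 1.05 over the alternatives, so its direction is not settled, and no alternative moved it by as much as 1.2-fold. With at most 10% mitochondrial counts the PS-MP share was 1.908% and the ratio 0.981; with doublets kept they were 1.928% and 0.991. Resolution 1.0 gave 1.973% and 1.966% (ratio 1.004), members among the clustering genes 1.916% and 1.921% (0.997), scaling without mitochondrial and ribosomal protein counts 2.430% and 2.428% (1.001), centring on the median ratio 1.004, cells thinned to 3500 UMI counts 1.988% and 1.996% (0.996, with 0 cells left out), and the 5 clusters weighted alike 2.033% and 1.978% (1.028). Cluster 6, almost wholly PS-MP, counted as granulosa-like gave 2.040% and a ratio of 1.047; cluster 4 counted so, an alternative chosen after seeing the data, gave 1.916% and 1.921% (0.997); leaving Actb, Tmsb4x and Tmsb10 out of the sum gave 1.331% and 1.320% (1.008). Of the members with at least 20 CPM under each setting, 1 was at least 1.2-fold higher in the main result. The number was 0 with at most 10% mitochondrial counts, doublets kept, members among the clustering genes or cluster 4 counted. It was 8, with 2 at 1.5-fold, when cluster 6 was counted. Both counts include Gsn, which was not among the 37 members of the main result and had a ratio of 3.09 then. Members at least 1.2-fold lower numbered 1 in the main result. They became 0 with members among the clustering genes, clusters weighted alike or cluster 4 counted. With clusters weighted alike the WASP and WAVE list had 0 lower and the muscle contractile list 1 lower. The cause of these moves was not tested. Of 410 single member ratios under an alternative, 316 stayed within the counting interval of the main value and 94 did not; 25 of 41 members stayed on the same side of 1 throughout. No paired analysis was possible because each group holds 1 library. Depth limits the smaller clusters most: cluster 12 held 90 PS-MP and 144 control cells.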
